A study of Mus musculus with 8 samples.

Results

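The genes described here are those named for the proteins of the cytosolic ribosome, in sorted mouse monocytes. They were chosen by name alone: symbols of the form Rpl or Rps followed by a number and at most one further letter (a, x, y or l), together with Rplp0, Rplp1, Rplp2 and Rpsa, while rows with a pseudogene suffix (-ps) and the Rps6k kinases were left out. The rule found 83 genes among 56748 gene rows, 51 of the large subunit and 32 of the small subunit. GENCODE M21 annotates 80 of them as protein-coding and the other 3 (Rpl6l, Rpl32l and Rps4l) as processed pseudogenes, of which Rpl6l and Rps4l were among the genes tested. Classical (Ly6Chigh) monocytes, which enter inflamed tissue, had been sorted from the spleen at day 7 after an aneurysm was induced, and their RNA was sequenced. Both groups had this treatment and differ by genotype: 4 libraries came from wild-type (WT) mice and 4 from mice without Olfr2 (KO), an olfactory receptor gene. The labels used here give neither the type of the Olfr2 allele nor strain, sex or age, nor whether each library is its own animal. The p-values below therefore reflect how far these libraries vary, which may be technical. The numbers in the names of the count columns fall into a 1600 series (WT 1, WT 2, KO 1 and KO 2) and a 1700 series (WT 3, WT 4, KO 3 and KO 4). What the series stand for is not stated in the labels.

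A cytosolic ribosome joins ribosomal RNA with about one copy of each ribosomal protein, so that cells make these proteins in nearly matched amounts. Their transcripts are short and abundant, and most begin with a C followed by an unbroken run of pyrimidines, the 5′ terminal oligopyrimidine (TOP) motif. Through this motif the mTORC1 kinase pathway and the RNA-binding protein Larp1 control how strongly the messages are translated and how long they last. In monocytes, as in other blood cells, ribosomal protein output is tied to growth and differentiation.

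The short windows below show what the start of such genes looks like, and were picked from genes whose levels are described further on. Promoter sequences (RefSeq, build GRCm38.p6) were at hand for 61 of the 83 genes. Capitals mark the pyrimidine run of at least 8 bases that begins with C, and each window is written 5′ to 3′ on the strand of the gene.
Rps15a, chr7:118116143-118116172, minus strand: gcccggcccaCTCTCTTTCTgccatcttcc
Rpl35a, chr16:33056469-33056498, plus strand: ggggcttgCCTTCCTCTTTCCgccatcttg
Rpl31, chr1:39367825-39367854, plus strand: tcgccacaCCTCTTCCTCCTCgcctccccg
Rplp2, chr7:141447637-141447666, plus strand: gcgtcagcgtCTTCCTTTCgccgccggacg
Rps12, chr10:23787181-23787210, minus strand: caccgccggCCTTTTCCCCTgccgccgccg
Rpl38, chr11:114668569-114668598, plus strand: gaagcctcgttCTTTCCCCgttctcttcgg
Rpl4, chr9:64173362-64173391, plus strand: tgacaagtCTTTCCTTTTCCTgtgggagca
Rpl5, chr5:107900498-107900527, plus strand: cctacagccaCTCTTTCTCacgtcgcttgc
Counted from the start that the RefSeq promoter entry uses as base 1, the run began at 1 in Rpl38 and 9 in Rps12. It began before that start in the others, at -4 in Rplp2, -5 in Rpl35a, -15 in Rps15a, -17 in Rpl4, -18 in Rpl31 and -20 in Rpl5. By the gene spans of GENCODE M21, whose starts differ, the runs of Rpl4 and Rpl31 began outside the gene and the other 6 inside it. Such a run starting between 20 bases before and 30 bases after the RefSeq start was present in 33 of 61 genes (54.1%), against 17.0% of 27025 genes with a promoter entry and 18.1% of 8256 tested genes. The letters CCGGAAG, on either strand of the 300-base promoter, were found in 25 of 61 (41.0%), against 9.93% of all and 22.9% of tested genes. On the sense strand CTTTCC, which can overlap the pyrimidine run, was also found in 25 of 61 (41.0%, against 16.0% and 17.6%). GCCATC, on either strand, was found in 15 of 61 (24.6%, against 15.9% and 18.0%). These are matches of letters and not measured binding sites. The windows of Rps15a and Rpl35a both hold a pyrimidine run followed at once by gccatc.

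Total counts lay between 16111725 and 21728794 per library. All 14 classical monocyte markers had counts, with a summed level of 119000 to 183000 CPM (counts scaled to a common library total, with TMM factors), and Lyz2 alone took 10.2% to 11.9% of the counts. Olfr2 had 0 counts in every library, so that it cannot check the genotype labels. T cell markers summed to 0.565 to 1.59 CPM. B cell markers summed to 17.0 to 36.1 CPM, with 6 of 10 detected and most counts in Cd79b, Cd22 and Cd79a. Pax5, Ebf1, Blk and Vpreb3 were at 0 in all 8 libraries. NK cell markers summed to 0.514 to 1.24 CPM, with 4 of 6 detected and Ncr1 and Klra8 at 0 in all 8. Neutrophil markers summed to 2590 and 3880 CPM in KO 1 and KO 2 and to 599 to 1050 CPM in the other libraries, with 12 of 12 detected.

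The family took 2.34% to 3.20% of all counts. The share was 2.62% in WT 1, 2.59% in WT 2, 3.05% in WT 3 and 3.04% in WT 4. It was 3.20% in KO 1, 3.01% in KO 2, 2.58% in KO 3 and 2.34% in KO 4. The high libraries were therefore KO 1 and KO 2 of the 1600 series and WT 3 and WT 4 of the 1700 series, and all 4 of them lay above the other 4. The mean share of KO minus that of WT was -0.04 percentage points, and this difference changed by -1.09 points from the 1600 to the 1700 series. The same division appeared in the median of the 79 genes that passed the filter on low counts, measured on the log2 scale against each gene's mean over the 8 libraries: it was 0.24 for KO 1, 0.26 for KO 2, 0.15 for WT 3 and 0.13 for WT 4, against -0.18 for WT 1, -0.22 for WT 2, -0.12 for KO 3 and -0.23 for KO 4.

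**Figure D1:**
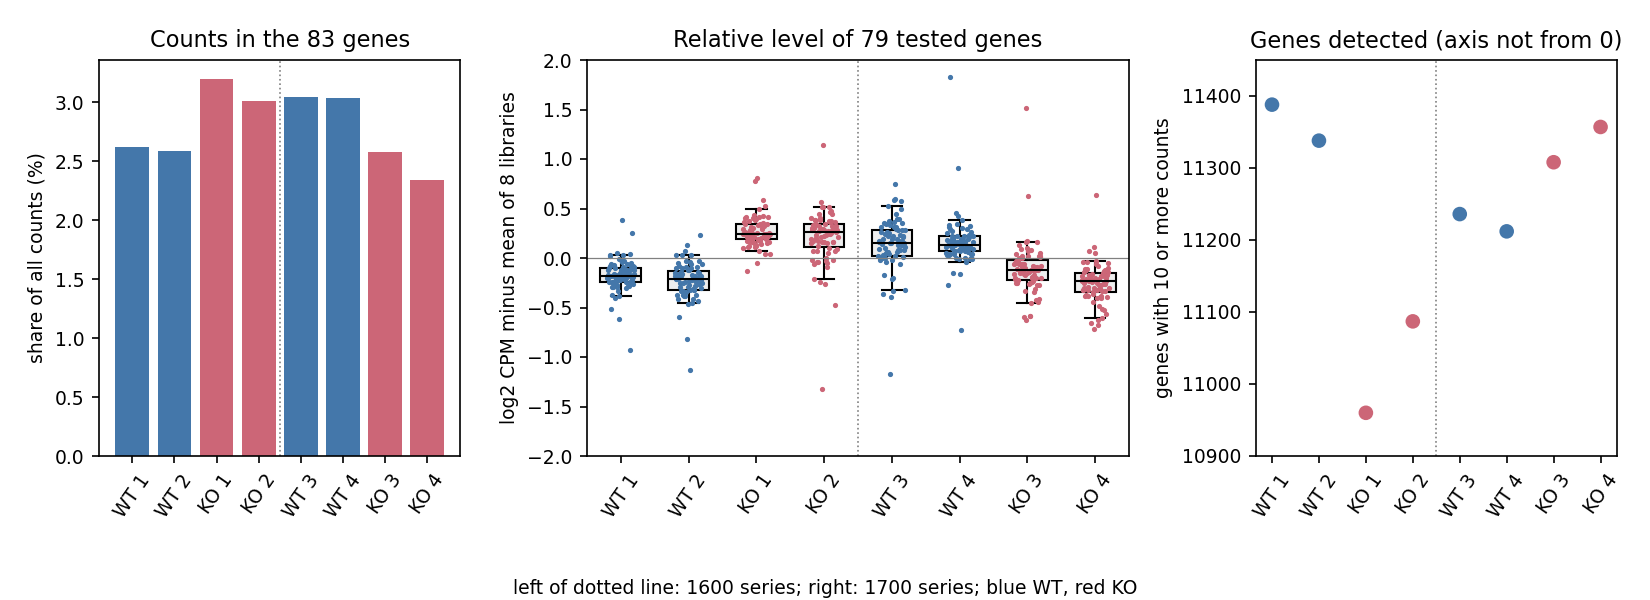
Left, the share of all counts (%) in the 83 ribosomal protein genes in each library; middle, log2 CPM of the 79 tested genes minus each gene's mean over 8 libraries (points, genes; boxes, quartiles; whiskers, 5th to 95th percentile); right, the number of genes with 10 or more counts on an axis that does not begin at 0. KO 1, KO 2, WT 3 and WT 4 have the higher shares (3.01% to 3.20%) and the fewer detected genes (10960 to 11236).

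Per kilobase of transcript the most abundant messages were those of Rps14 (2240 CPM per kilobase, mean of 8 libraries), Rps9 (1920), Rpl10 (1570), Rpl41 (1460) and Rpl32 (1330), followed by Rps18, Rps19 and Rpl13 (1280, 1250 and 1030). Rps14 and Rps19 are the small-subunit genes known from inherited and acquired anaemias with ribosome defects, and Rpl10 is an X-linked protein that joins the large subunit late in its assembly. The annotated transcripts of Rps15a (5179 bases) and Rps20 (3706 bases) are long, and their level per kilobase (44.7 and 52.3 CPM) depends on that choice of transcript. The median transcript of the tested members had 833 bases, against 2589 bases for all tested genes.

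A few members were nearly silent in the table. Rpl10l, an intronless copy known from the testis, had 0 counts in every library, and the pseudogene Rpl32l had 0 to 2. Rpl24, a core protein of the large subunit, had 5, 6, 7 and 7 counts in the WT libraries and 2, 7, 18 and 22 counts in KO. Rps10, a core protein of the small subunit, had 4, 4, 9 and 10 counts in WT and 6, 3, 3 and 7 in KO. These 4 genes did not pass the filter, and the other 79 did. The low counts of Rpl24 and Rps10 stand beside a property of their annotation: 47.0% of the exon bases of Rpl24 are shared on the same strand with Gm28037, and 20.6% of those of Rps10 with the readthrough gene RPS10-NUDT3. Reads that fit more than one gene can be lost in counting, and the sources used here do not give the settings. Whether this sets the low counts was not tested. Gm28037 itself had 0 counts in all 8 libraries. Rpl13a, which in myeloid cells also acts in an interferon-driven silencing complex, had only 8.69 to 14.0 CPM, with 35.4% of its exon bases shared on the same strand with other annotated genes, among them Gm45713 (0 counts in all libraries). Over the 83 genes the median share of 100-base stretches found elsewhere in the annotated transcripts was 36.8%, so that levels of single members are uncertain where copies compete for reads. This holds for Rps27 (98.4%), Rpl10 (91.6%) and Rpl5 (91.1%) most, while Rps21, Rps3, Rpl22, Rpl32 and Rps27l shared no such stretch.

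The comparison that the genotypes allow is KO against WT over all 8 libraries. No ribosomal protein gene was called: 0 of 79 members had an adjusted p under 0.05, where 119 genes or 1.06% had one in all. Here and below, p-values are those of edgeR's quasi-likelihood test, adjusted by Benjamini-Hochberg over all 11222 tested genes. DESeq2 and limma-voom also called 0 members. The median log2 difference of the members was 0.08, against -0.00 for all genes, and 54 of 79 were positive (49.6% of all genes). At an unadjusted p of 0.05, 4 members were higher (5.06%, against 8.93% of all genes) and 2 lower (2.53%, against 12.0%). In bulk RNA such values cannot tell fewer cells of a type from less RNA per cell.

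The 6 members with an unadjusted p under 0.05 included the few whose genotypes stood apart. Rpl4, a large-subunit protein that lines the peptide exit tunnel, had 354, 360, 299 and 391 CPM in WT 1 to 4 and 424, 480, 440 and 424 CPM in KO 1 to 4. Every KO library lay above every WT library. The log2 difference was 0.33 ± 0.11 (SE), with an adjusted p of 0.131 (edgeR). Among tested members it was the only one with all KO above all WT libraries, a pattern seen in 5.35% of all tested genes. Rps4l, an autosomal processed copy of the X-linked Rps4x, had 18.8, 18.6, 18.5 and 19.0 CPM in WT and 17.6, 11.4, 11.8 and 13.5 CPM in KO. Here all KO libraries lay below all WT libraries, again 1 member against 6.06% of genes, and the difference was -0.46 ± 0.16 (edgeR adjusted p = 0.135). Rps4x itself had 463, 470, 543 and 539 CPM in WT and 629, 656, 546 and 494 CPM in KO. Its genotypes overlapped (log2 difference 0.21 ± 0.12, edgeR adjusted p = 0.350).

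Rpl7a had 32.5, 11.3, 19.7 and 15.0 CPM in WT and 43.8, 20.7, 38.6 and 38.7 CPM in KO. WT 1 lay above KO 2, and the log2 difference was 0.85 ± 0.33 (edgeR adjusted p = 0.189). Rpl5, which with Rpl11 and the 5S RNA can bind and restrain Mdm2, the p53 ligase, had 212, 199, 210 and 269 CPM in WT and 268, 283, 274 and 252 CPM in KO. WT 4 lay within the KO range (log2 difference 0.28 ± 0.12, edgeR adjusted p = 0.207). Its partner Rpl11 had 195, 189, 244 and 248 CPM in WT and 235, 243, 212 and 193 CPM in KO, with a difference of 0.01 ± 0.13. Rpl7 (0.28 ± 0.12, edgeR adjusted p = 0.222) and Rpl36 (-0.50 ± 0.23, edgeR adjusted p = 0.237) completed the 6. Rpl18 (-0.29 ± 0.15) and Rpl23a (0.26 ± 0.13) came next by p, at edgeR adjusted p of 0.277 and 0.281. Rpl21, a large-subunit protein, had 24.7, 23.3, 27.3 and 126 CPM in WT and 32.2, 46.0, 30.3 and 27.2 CPM in KO. WT 4 stood far above the other 7 libraries, and the difference was -0.56 ± 0.63 (edgeR adjusted p = 0.650).

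The 2 number series were then compared, each with 2 libraries per genotype, in one fit of 4 groups that shares the spread of all 8 libraries. Within the 1600 series, 18 of 79 members were called higher in KO (22.8%, where 1.14% of all genes were called higher). None was called lower by edgeR (0 members, 0.713% of all genes), with 0 members also at an unadjusted p of 0.05 (9.32% of all genes) and 0 with DESeq2 and limma-voom. At an unadjusted p of 0.05, 58 were higher (10.1% of all genes). The median difference was 0.45 on the log2 scale against -0.04 for all genes, and 78 of 79 members were positive (46.6% of all genes). Rps4l (-0.37 ± 0.23) was the exception. Of the 18, 11 belong to the large and 7 to the small subunit. In 69 of 79 members both KO libraries lay above both WT libraries of the series, against 25.6% of all genes. Rps27l, a stress-linked paralog of Rps27, missed the threshold narrowly (0.57 ± 0.13, edgeR adjusted p = 0.0508).

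Rpl39, a small X-linked protein at the peptide exit tunnel, had 66.7 and 68.4 CPM in WT 1 and WT 2, against 118 and 124 CPM for KO 1 and KO 2. It rose by 0.84 ± 0.14 (SE) on the log2 scale, with an edgeR adjusted p of 0.0211. Rpl41, whose product is a very short peptide of the large subunit, had 536 and 452 CPM in WT and 820 and 892 CPM in KO. Its rise was 0.79 ± 0.13 (edgeR adjusted p = 0.0223). Rps15a, a protein of the small subunit, had 184 and 169 CPM in WT and 287 and 322 CPM in KO, a rise of 0.79 ± 0.13 (edgeR adjusted p = 0.0211). Rpl36a, also X-linked, had 65.7 and 60.7 CPM in WT and 97.5 and 118 CPM in KO. Its rise was 0.77 ± 0.15. For each of these genes the WT and KO libraries of the series did not overlap.

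Further small-subunit genes called higher included Rps20 (0.68 ± 0.13), Rps2 (0.65 ± 0.13), Rps19 (0.58 ± 0.13), Rps7 (0.55 ± 0.12) and Rps24 (0.54 ± 0.12). Rps2, which sits at the mRNA entry of the small subunit, went from 528 and 486 CPM to 829 and 768 CPM. Of the large subunit Rpl31 (0.68 ± 0.13), Rpl35a (0.64 ± 0.14), Rpl22 (0.64 ± 0.14), Rpl35 (0.62 ± 0.13), Rpl14 (0.60 ± 0.13), Rpl26 (0.58 ± 0.12), Rpl32 (0.56 ± 0.13) and Rpl10 (0.54 ± 0.12) were called. Rpl22, an RNA-binding protein that is dispensable for most translation, went from 60.0 and 63.6 CPM to 90.3 and 102 CPM. In Rpl35, 66.2% of the exon bases are covered on the opposite strand by Arpc5l and Wdr38, so that part of its count could belong to these neighbours.

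These calls rested on few libraries. KO 1 and KO 2 were also the libraries with the highest sums of neutrophil, progenitor (176 and 261 CPM, others 41.3 to 61.8 CPM) and dividing-cell markers, and the part of these markers in the calls was not tested. The count of 18 fell to 0 without WT 1, without WT 2 or without KO 2, to 7 without KO 1 and to 3 without KO 3 or KO 4, and was 30 without WT 3 or WT 4. The median stayed between 0.42 and 0.47 throughout. With offsets that remove each library's trend with the length and GC content of transcripts, chosen for this comparison after seeing the data, 2 members were called and the median was 0.20.

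Within the 1700 series the difference went the other way. KO was lower in 7 of 79 members (8.86%, where 1.10% of all genes were called lower) and higher in 0 (edgeR, 0.276% of all genes), with 1 member at an unadjusted p of 0.05 (Rpl4, 10.6% of all genes) and 0 with DESeq2 and limma-voom. At an unadjusted p of 0.05, 43 were lower (12.1% of all genes). The median was -0.36 against -0.01 for all genes, and 70 of 79 members were negative and 9 positive (49.3% of all genes). In 63 members both KO libraries lay below both WT libraries, against 28.3% of all genes. In 56 of them both KO libraries had also been above both WT libraries of the 1600 series (5.53% of all genes).

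The stalk genes led this group. Rplp1 and Rplp2 encode the acidic proteins of the stalk, which recruit translation factors to the large subunit and are held there by Rplp0. Rplp1 had 434 and 378 CPM in WT 3 and WT 4 and 193 and 181 CPM in KO 3 and KO 4. It fell by 1.12 on the log2 scale (SE 0.17, edgeR adjusted p = 0.0241), and the genotypes did not overlap. Rplp2 had 177 and 144 CPM in WT and 78.4 and 76.2 CPM in KO, a change of -1.06 ± 0.18 (edgeR adjusted p = 0.0334). For Rplp0, with 1360 and 1220 CPM in WT and 916 and 874 CPM in KO, the difference was -0.53 ± 0.13 and did not pass (edgeR adjusted p = 0.0629).

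Rpl36, a large-subunit protein, had 253 and 241 CPM in WT 3 and WT 4 and 117 and 112 CPM in KO 3 and KO 4. Its change was -1.12 ± 0.18 (edgeR adjusted p = 0.0334). Rps12, of the small subunit, had 68.2 and 46.0 CPM in WT and 29.7 and 29.1 CPM in KO (-0.96 ± 0.20, edgeR adjusted p = 0.0410). The zinc-binding Rps29 had 304 and 299 CPM in WT and 175 and 162 CPM in KO (-0.84 ± 0.14). Rps21 had 56.4 and 52.8 CPM in WT and 34.7 and 28.2 CPM in KO (-0.80 ± 0.16). Rpl38, known from a mouse mutant with skeletal patterning defects, had 103 and 101 CPM in WT and 63.3 and 58.6 CPM in KO (-0.75 ± 0.14). In all 7 the KO libraries lay below the WT libraries of the series.

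None of these 7 was among the 18 called in the 1600 series. There Rplp1 had 295 and 278 CPM in WT and 385 and 273 CPM in KO (0.20 ± 0.16), and KO 2 lay below both WT libraries. Rpl36 had 182 and 184 CPM in WT and 233 and 148 CPM in KO (0.06 ± 0.18). The 7 calls rested on few libraries. Without KO 3, KO 4 or WT 3 the 7 genes kept their direction but not their calls. They kept both without WT 1, WT 2 or WT 4, and some lost their calls without KO 1 or KO 2. Each of these fits leaves a lone library in 1 group. The median lay between -0.40 and -0.28 in these fits. With the same length and GC offsets as above, 0 members were called (edgeR; 30 had an unadjusted p under 0.05 in either direction) and the median was -0.22.

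**Figure D2:**
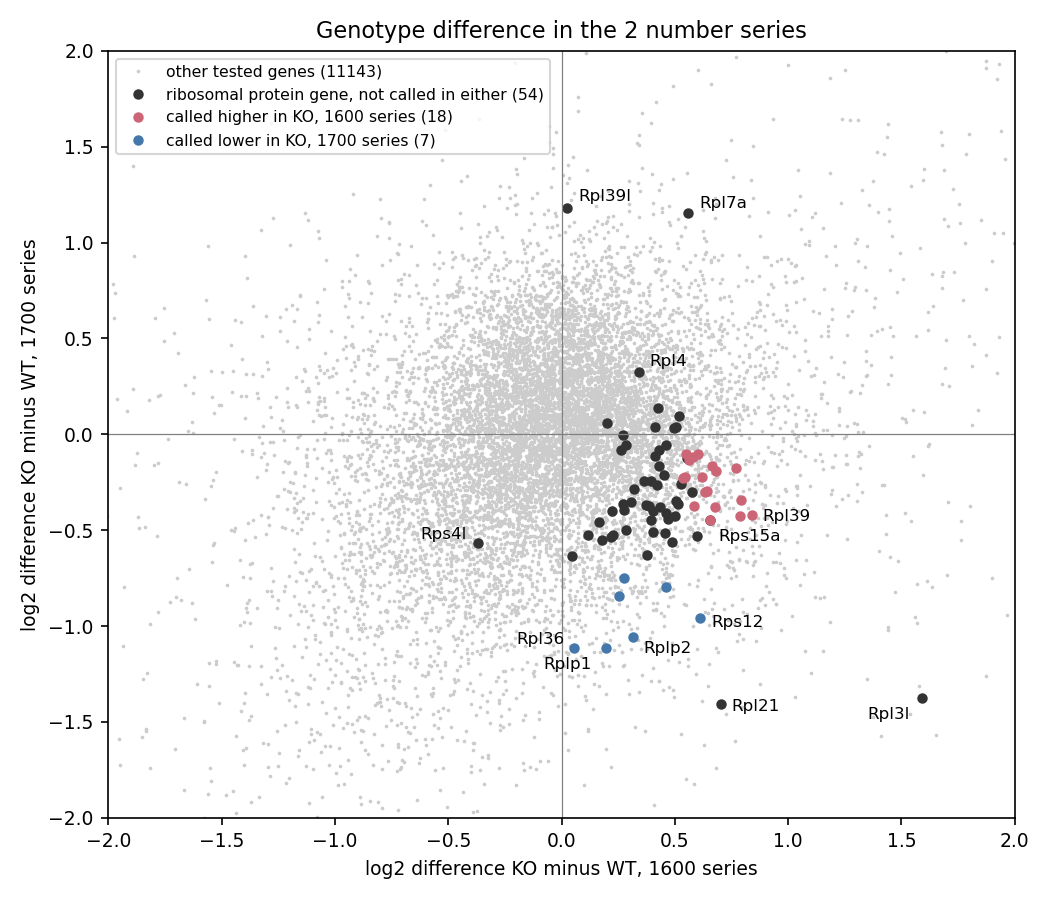
The log2 difference KO minus WT of each tested gene in the 1600 series (horizontal axis) and the 1700 series (vertical axis); grey, the other 11143 tested genes within the axis limits of -2 and 2; coloured, ribosomal protein genes by their call. The 18 genes called in the 1600 series and the 7 called in the 1700 series lie in the lower right, higher in KO in the 1600 series and lower in the 1700 series.

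The change of the genotype difference between the series was tested directly. This interaction, the difference in the 1700 series minus that in the 1600 series, was called lower in 22 of 79 members (27.8%, where 0.472% of all genes were called lower) and higher in 0 (edgeR, 0.312% of all genes), with 0 members at an unadjusted p of 0.05 (7.49% of all genes) and 0 with DESeq2 and limma-voom. In either direction 88 genes were called (0.784%), and the 22 members were among the 53 called lower. At an unadjusted p of 0.05, 66 members were lower (8.61% of all genes). The median was -0.76 against 0.01 for all genes, and 77 of 79 members were negative (2 positive, against 50.7% of all genes), the exceptions being Rpl7a (0.60 ± 0.78) and Rpl39l (1.16 ± 1.29). The division by sign was the same under other library scalings: it was 78 of 79 positive in the 1600 series and 70 of 79 negative in the 1700 series also with RLE factors and with TMM factors computed without these genes. The offsets for transcript length and GC content moved it to 71 positive and 8 negative (1600 series), 62 negative and 17 positive (1700 series) and 72 negative and 7 positive (interaction).

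Rps12 had the largest interaction among called members apart from Rpl3l, at -1.57 ± 0.28 (edgeR adjusted p = 0.0389). Its levels were 36.4, 29.6, 68.2 and 46.0 CPM in WT 1 to 4 and 51.7, 49.3, 29.7 and 29.1 CPM in KO 1 to 4. KO 1, KO 2, WT 3 and WT 4 all lay above the other 4 libraries. Rplp2 (-1.37 ± 0.26), Rplp1 (-1.31 ± 0.23), Rpl39 (-1.26 ± 0.20), Rps21 (-1.26 ± 0.23) and Rps15a (-1.21 ± 0.18) followed. Rpl39 stood at 96.7 and 97.2 CPM in WT 3 and WT 4 and 77.0 and 67.8 CPM in KO 3 and KO 4. Rps15a stood at 258 and 252 CPM in WT 3 and WT 4 and 196 and 183 CPM in KO 3 and KO 4, and its high libraries were again KO 1, KO 2, WT 3 and WT 4.

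**Figure D3:**
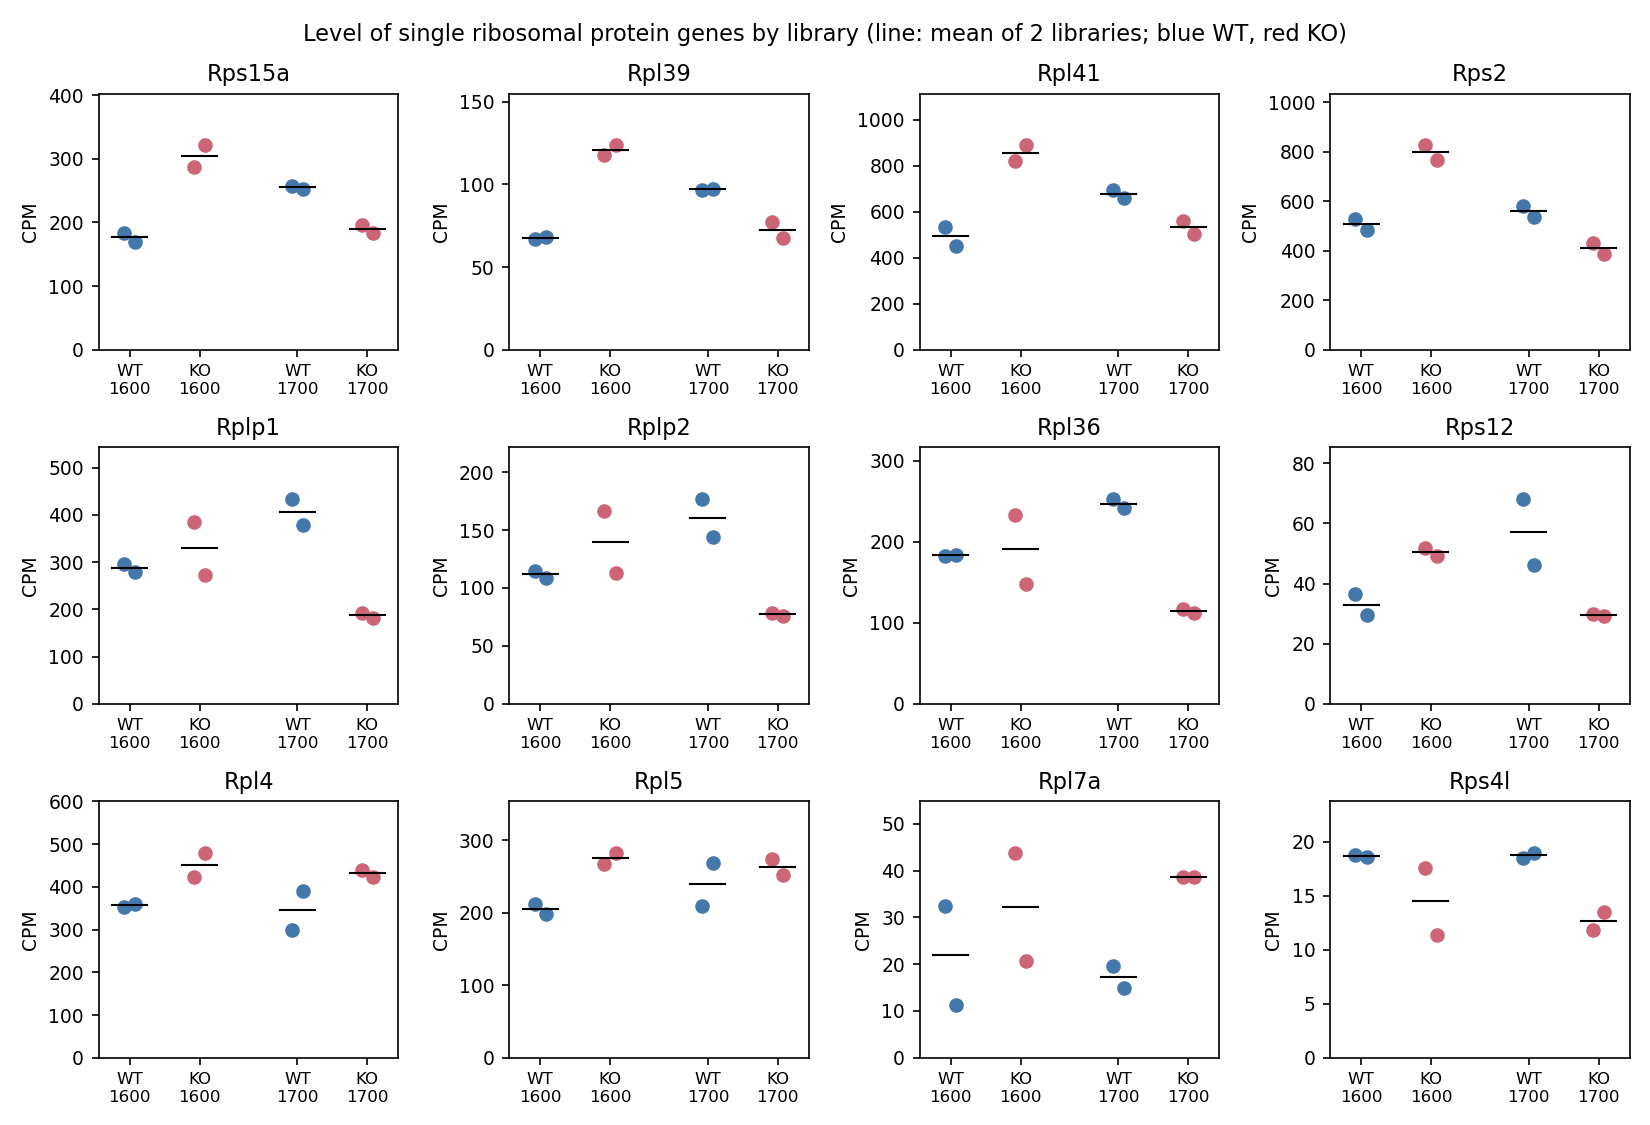
Level (CPM) of 12 ribosomal protein genes in each library, by genotype and number series, with points for libraries and lines for the mean of 2. Rps15a, Rpl39 and Rpl41 are highest in KO of the 1600 series, and Rplp1, Rplp2 and Rpl36 are lowest in KO of the 1700 series. Rpl4, Rpl5, Rpl7a and Rps4l keep 1 direction in both series.

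Rps14, the most abundant message per kilobase, had 1130, 1060, 1790 and 1450 CPM in WT 1 to 4 and 1510, 1560, 1110 and 1090 CPM in KO 1 to 4 (interaction -1.05 ± 0.19, edgeR adjusted p = 0.0369). Rps19 had 697, 637, 851 and 837 CPM in WT and 997, 1000, 708 and 596 CPM in KO (-0.96 ± 0.18). In both the same 4 libraries were high. Further called members included Rpl41 (-1.13 ± 0.19), Rps16 (-1.13 ± 0.21), Rps2 (-1.10 ± 0.18), Rps29 (-1.10 ± 0.19), Rps20 (-1.06 ± 0.19), Rpl38 (-1.02 ± 0.20), Rps18 (-0.97 ± 0.18), Rpl35a (-0.94 ± 0.19), Rpl9 (-0.91 ± 0.19), Rpl27 (-0.91 ± 0.19), Rps23 (-0.88 ± 0.17) and Rpl37 (-0.87 ± 0.18). All of these are core proteins of the ribosome.

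Rpl3l, a form of Rpl3 known from striated muscle, was scarce and had the largest interaction of all members. It had 1.64, 1.42, 3.30 and 4.96 CPM in WT and 3.41, 5.84, 1.63 and 1.53 CPM in KO (-2.97 ± 0.52, edgeR adjusted p = 0.0369). Rpl3 itself had 464, 510, 484 and 449 CPM in WT and 556, 562, 531 and 441 CPM in KO. Its interaction was -0.14 ± 0.19 (edgeR adjusted p = 0.776).

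Over all 79 members, KO 1, KO 2, WT 3 and WT 4 all lay above WT 1, WT 2, KO 3 and KO 4 in 53 (67.1%), against 4.04% of all tested genes, and the opposite order was seen in 0 (3.52% of all genes). This division was noticed in the same libraries and is given as a description. The count of 22 calls was 0 without WT 2, KO 3 or KO 4, 1 without WT 1, 3 without WT 3, KO 1 or KO 2, and 46 without WT 4. The median lay between -0.82 and -0.72 in these fits, in which 1 group of the 4 had a lone library that is taken to vary like the others. The length and GC offsets left 1 member called, with a median of -0.43. The series themselves, averaged over genotypes, differed in 2 genes in all (0.0178%) and in 0 members by edgeR. At an unadjusted p of 0.05, 1 member was higher and 3 were lower in the 1700 series (2.82% and 3.97% of all genes), and DESeq2 and limma-voom called 0, with a member median of -0.04.

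Large and small subunits had similar medians. In the 1600 series the median was 0.43 for 48 large-subunit genes and 0.49 for 31 small-subunit genes. The 1700 series gave -0.29 for the large subunit and -0.39 for the small one. The interaction was called in 10 and 12 of them. The difference between subunits was not tested. Across the 8 libraries the median correlation between 2 members was 0.72 (3081 pairs, over libraries that share depth and composition). Of 79 members 50 correlated above 0.8 with the member median, which includes the member itself. Rpl39l (-0.29), Rpl7a (-0.06) and Rps4l (-0.02) were below 0, and Rpl4 was at 0.15. Such correlations were not computed for all tested genes. Rpl39l, a testis-enriched copy of Rpl39, was at 0.185 to 1.96 CPM, where few counts set its value.

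Members with other known roles followed the family median to different degrees. Rps6, the protein that the S6 kinases phosphorylate under mTORC1, had 589, 576, 731 and 665 CPM in WT and 750, 803, 694 and 596 CPM in KO, with an interaction of -0.53 ± 0.18 (edgeR adjusted p = 0.185). Rpsa, also known as the laminin receptor precursor, had 621, 633, 714 and 706 CPM in WT and 784, 766, 577 and 536 CPM in KO (-0.66 ± 0.17, edgeR adjusted p = 0.0909). KO 1 and KO 2 were the highest libraries in both, and neither passed. Rps27a, which is made as a fusion with ubiquitin, had 215, 370, 608 and 481 CPM in WT and 466, 457, 458 and 341 CPM in KO. Its WT libraries differed from each other more than the genotypes did (interaction -1.10 ± 0.35, edgeR adjusted p = 0.175). Rps27 and its paralog Rps27l had interactions of -0.73 ± 0.19 and -0.87 ± 0.19, with edgeR adjusted p of 0.0956 and 0.0552. Paralogs that the name rule leaves out were not called either: Rpl22l1 (44.9 to 73.1 CPM) and Rpl7l1 (103 to 142 CPM) had interactions of -0.34 ± 0.30 and -0.11 ± 0.20, and Rpl36al was scarce (1.20 to 2.85 CPM).

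GC content was related to the differences among members within each series. As a description across 79 genes that share the same libraries, Spearman's rho between the GC content of the transcript and the difference was -0.33 in the 1600 series and -0.36 in the 1700 series. For the other tested genes it was -0.17 and -0.36. With the interaction, rho was -0.07 among members and -0.17 among the other tested genes. Interaction medians were -0.87, -0.70 and -0.81 in members of low, middle and high GC content. In the 27 members of lowest GC content (41.3% to 49.4%) the medians were 0.51 and -0.30, and 9 were called higher in the 1600 series and 0 lower in the 1700 series. In the 26 of highest GC content (above 53.3%) the medians were 0.40 and -0.44, with 4 called higher in the 1600 series and 4 lower in the 1700 series. The 7 members called lower in the 1700 series had GC contents between 52.5% and 60.8%. Whether GC content plays a part in these differences was not tested beyond the offsets given above.

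**Figure D4:**
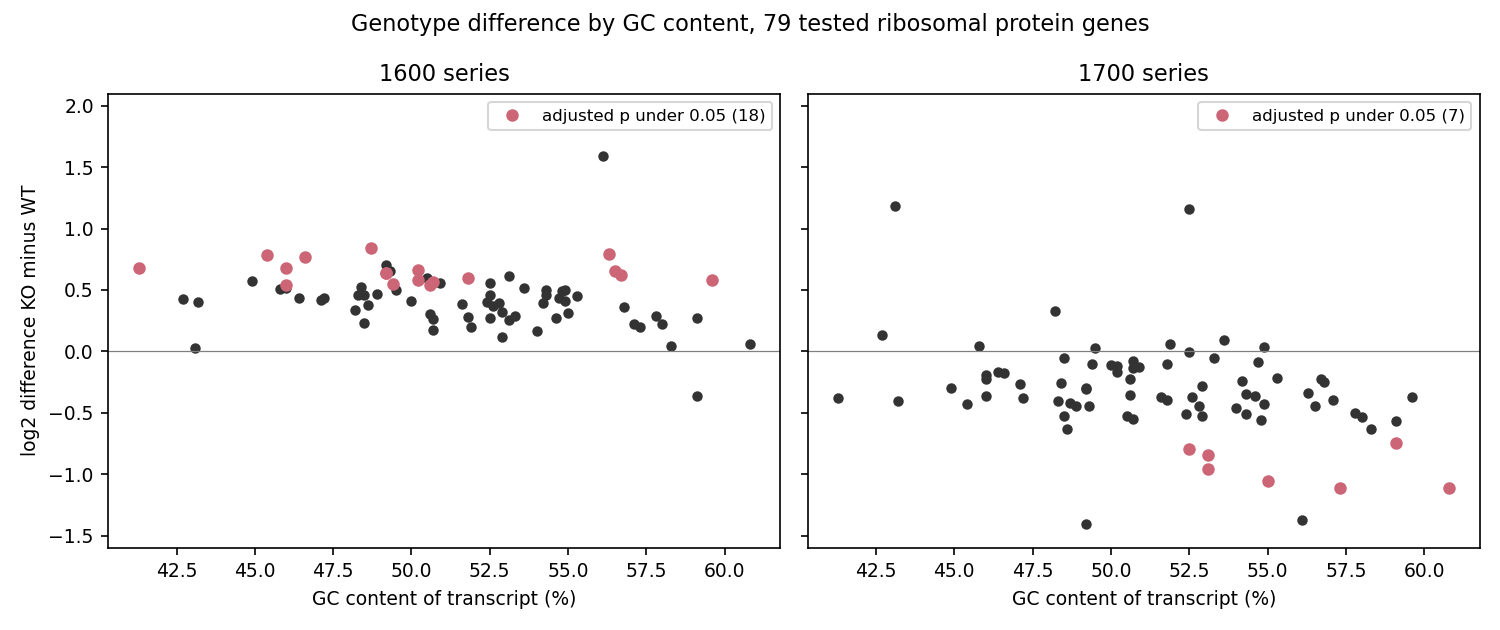
The log2 difference KO minus WT against the GC content (%) of the transcript for the 79 tested ribosomal protein genes, in the 1600 series (left) and the 1700 series (right); coloured points passed an adjusted p of 0.05. The 18 genes called on the left lie between 41.3% and 59.6%, and the 7 called on the right lie at 52.5% or above.

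The genes around the ribosome did not all share the pattern. Of ribosomal proteins that the name rule leaves out, 10 were tested, and their medians were 0.20 (1600 series) and -0.22 (1700 series). Fau, a fusion of a ubiquitin-like protein with a small-subunit protein, was the only one called: it had 310, 310, 426 and 439 CPM in WT and 396, 330, 269 and 247 CPM in KO, fell in the 1700 series (-0.75 ± 0.13, edgeR adjusted p = 0.0334) and had an interaction of -0.97 ± 0.19 (edgeR adjusted p = 0.0436). Translation elongation factors and related genes (10 genes, among them Eef2k, Eef1e1 and Tpt1) had medians of 0.15 and -0.03. Initiation factors (36 genes) had 0.12 and 0.14, and 0 genes of either list were called in any of these tests by edgeR. Factors that assemble ribosomes (60 genes) had medians of -0.09 and 0.22, the opposite order to the ribosomal proteins, and 1 of them passed: Nop56, a protein of the nucleolar methylation complex, was higher in KO in the 1700 series (1.26 ± 0.26, edgeR adjusted p = 0.0395), with 7.51 and 11.7 CPM in WT 3 and WT 4 and 23.4 and 22.6 CPM in KO 3 and KO 4. Of 14 chaperones and surveillance factors 1 was called, Nap1l1, higher in the same series (0.80 ± 0.16, edgeR adjusted p = 0.0371). Of all tested genes 0.276% were called higher in that series. With the length and GC offsets 5 genes in all were called there in either direction. Host genes of nucleolar RNAs (12 genes) had medians of -0.04 and -0.56 with 0 called (edgeR).

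Of 21 regulators of TOP messages and of mTORC1, only Larp1 was called. It fell over all 8 libraries (-2.06 ± 0.29, edgeR adjusted p = 0.0341). In this comparison limma-voom called 0 genes, and edgeR called 0 without WT 1, WT 3, KO 2 or KO 3. With the length and GC offsets edgeR called 1 gene in all. On the scale of the member medians, the longest 10% of other transcripts were at -0.24, -0.15, -0.12 and -0.08 in KO 1 to 4. In WT 1 to 4 these transcripts were at 0.26, -0.07, 0.27 and 0.33. The part of transcript length in the fall of Larp1 was not tested. Raw counts of Larp1 were 50 to 96 in WT and 16 to 24 in KO libraries. Of the 21 regulators 15 were lower and 6 higher in KO, where 49.6% of all tested genes were higher. Larp4b was next by p (-0.95 ± 0.24, edgeR adjusted p = 0.0677). Larp1, which binds the cap and the TOP motif and holds these messages in reserve, had 4.67, 2.45, 4.86 and 5.96 CPM in WT and 1.08, 0.984, 1.07 and 1.11 CPM in KO. Every KO library lay below every WT library. It also fell within each series (-1.78 ± 0.40 and -2.30 ± 0.38, edgeR adjusted p = 0.0438 and 0.0334), with an interaction of -0.52 ± 0.55 (edgeR adjusted p = 0.700). The ribosomal protein genes had opposite medians in the 2 series, and a link between Larp1 and their levels was not tested.

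The pattern was not particular to ribosomal proteins. Subunits of oxidative phosphorylation, the complexes of the mitochondrial respiratory chain and ATP synthase, had medians of 0.40 and -0.29 over 73 genes. Of these 5 were called higher in the 1600 series (Ndufa4, Ndufb11, Atp5j, Atp5j2 and Atp5k), 5 lower in the 1700 series (Uqcrq, Uqcr11, Ndufb6, Atp5e and Cox8a) and 5 in the interaction (Uqcrq, Ndufb11, Ndufa2, Ndufc1 and Atp5e), all named after their values were seen. Proteins of the mitochondrial ribosome, which are also nuclear genes, had medians of 0.28 and 0.02 over 81 genes, with 2 called higher in the 1600 series (Mrpl51 and Mrpl42) and 1 lower in the 1700 series (Mrpl57). Their interaction had a median of -0.34, with 70 of 81 negative and 0 called (edgeR). Of all tested genes 1.14% were called higher in the 1600 series, 1.10% lower in the 1700 series and 0.784% in the interaction. The other 2986 tested genes with transcripts of up to 1662 bases, the 90th percentile of member length, had medians of 0.18 and -0.09.

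**Figure D5:**
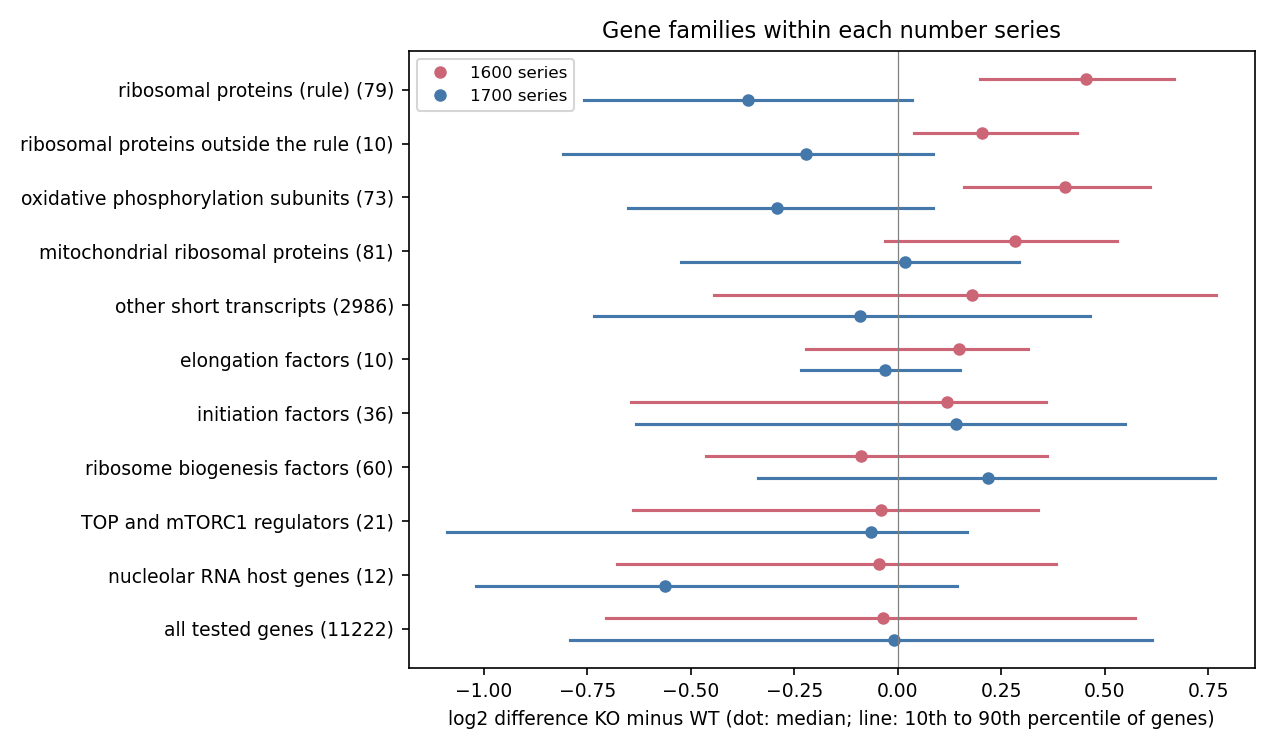
Median (dot) and 10th to 90th percentile over genes (line) of the log2 difference KO minus WT in the 1600 series and in the 1700 series, by gene family, with the number of tested genes in brackets. Ribosomal proteins (0.45 and -0.36) and oxidative phosphorylation subunits (0.40 and -0.29) lie on opposite sides of 0 in the 2 series, and ribosome biogenesis factors lie the other way (-0.09 and 0.22).

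Several properties of the libraries moved with the family. The number of genes with 10 or more counts was 11388 for WT 1, 11338 for WT 2, 11308 for KO 3 and 11357 for KO 4. It was lower in each of the libraries with high ribosomal protein levels, at 11236 (WT 3), 11212 (WT 4), 10960 (KO 1) and 11087 (KO 2). These counts were not scaled for depth. WT 4, KO 1 and KO 2 had the smallest totals (16111725, 17258427 and 17601299), and KO 3 and KO 4 the largest (21122111 and 21728794). WT 3 (18997085) lay above WT 1 (18363593). Short transcripts outside the family, on the scale used for the member medians above, were at 0.08 for KO 1, 0.12 for KO 2, 0.11 for WT 3 and 0.01 for WT 4. In the other 4 libraries they were between -0.11 and -0.02. Neutrophil markers separated only KO 1 and KO 2. Conventional dendritic cell markers (7 of 7 detected) summed to 133, 139, 529 and 487 CPM in KO 1 to 4 and to 215, 467, 376 and 250 CPM in WT 1 to 4. Markers of dividing cells (15 of 15 detected) summed to 506, 928, 466 and 148 CPM in KO 1 to 4 and to 40.8, 216, 68.0 and 42.5 CPM in WT 1 to 4. Counts from the mitochondrial genome, 0.504% to 0.640%, did not separate these libraries. The part of these properties in the ribosomal protein differences was not tested.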

How the data were processed

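Oligo-dT primed, template-switched cDNA (SMART-Seq v4) of sorted monocytes was sequenced, per the labels' protocols. The authors deposited raw counts per gene for 8 libraries. The submitters' processing notes name HISAT2 2.0.5, featureCounts 1.5.0-p3 and GRCm38, without settings. How reads that fit several genes or a gene's opposite strand were counted is not given in the sources used here. Recovery in such libraries can depend on transcript length and GC content.

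Groups follow the genotype labels. Counts were tested with edgeR 4.0.16 (R 4.3.3; filterByExpr, TMM, robust quasi-likelihood, Benjamini-Hochberg at 0.05), which kept 11222 genes with 99.9% of the counts. KO was compared with WT over 8 libraries, and within and between the number series in a fit of 4 groups. Levels are CPM on TMM-scaled library sizes, and log2 CPM used a prior count of 2. Calls were checked with DESeq2 1.42.0, limma-voom (limma 3.58.1) and offsets for length and GC content (mgcv 1.9.3), among other alternatives. Transcripts come from GENCODE M21. No 2 libraries of a genotype were alike within counting noise (chi-square per degree of freedom 16.5 to 77.2).

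The members and lists were chosen with earlier results of these data known. Members are named where they passed a test, had one of the 8 smallest p, largest differences or highest levels per length, had under 10 counts in a library, or are paralogs, stalk proteins or proteins with known other roles. From the lists of other genes, Larp1 and up to 3 genes with the smallest p are named, and others where stated. A few members are counted but not reported here by name.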

Additional observations from a re-analysis of the deposited data

Results flagged for a closer look

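The genotype difference itself changed between the number series, by the interaction test of edgeR, for 22 ribosomal protein genes. Among them the values, 1700 minus 1600 series on the log2 scale, were -2.97 for Rpl3l, -1.57 for Rps12, -1.37 for Rplp2, -1.31 for Rplp1, -1.26 for Rpl39, -1.26 for Rps21 and -1.21 for Rps15a. They were -1.13 for Rpl41, -1.13 for Rps16, -1.10 for Rps2, -1.10 for Rps29, -1.06 for Rps20, -1.05 for Rps14 and -1.02 for Rpl38. They were -0.97 for Rps18, -0.96 for Rps19, -0.94 for Rpl35a, -0.91 for Rpl9, -0.91 for Rpl27, -0.88 for Rps23 and -0.87 for Rpl37.

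In 3 of 124 sets of 4 values, 1 library stood apart from the rest of its genotype. Chance alone flags about 1 set in 20. Rpl21, a large-subunit protein, had 126 CPM in WT 4 and 23.3 to 27.3 CPM in the other WT libraries. Rpl7 had 663 CPM in WT 4 and 537 to 552 CPM in the other WT libraries. Rps27a had 341 CPM in KO 4 and 457 to 466 CPM in the other KO libraries.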

How the results depend on the processing

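The medians of the members kept their sign within each series in every fit, and no member was called in KO against WT over all 8 libraries except 1 (Rpl7a) with the replicate block. Counts of calls moved most. Alternatives for the 4-group tests, other than leaving out a library in the interaction counts, were chosen after seeing the data. With no filter on low counts 29 members were higher in the 1600 series, 20 lower in the 1700 series and 39 in the interaction (median -0.70), with 742 genes in KO against WT, 645 in the interaction, and 186 genes and 1 member between the series. With DESeq2 these were 29, 19, 49, 784, 451 and 73 genes. With the length and GC offsets they were 2, 0 (edgeR, 30 at an unadjusted p under 0.05), 1, 1, 5 and 1, with medians of 0.20, -0.22 and -0.43, and Rpl5 turned to -0.018 in KO against WT. limma-voom called 0 genes in KO against WT (2371 at an unadjusted p under 0.05) and 57 in the interaction. RLE factors gave 1 gene between the series. KO against WT gave 251 genes with the series as covariate, 7 without KO 1 and KO 2 together (member median -0.14) and 611 at an adjusted p of 0.1. With the replicate block 244 genes and 1 member were called in KO against WT, 155 genes in the interaction and 1 member higher in the 1700 series. Libraries with the same number did not deviate together (correlations -0.013, -0.028, -0.049 and 0.093), and not every library correlated best with its own number. The deviations were taken from the genotype mean, so that genes with opposite differences in the 2 series lower these correlations. They therefore cannot decide whether the samples were paired.

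Leaving out 1 library at a time gave 0 to 515 genes in KO against WT, 0 to 30 members in the 1600 series, 0 to 21 lower and 0 to 1 higher in the 1700 series (median -0.40 to -0.28), 3 to 628 genes and 0 to 46 members in the interaction (median -0.82 to -0.72), and 0 to 17 genes and 0 to 1 members between the series. Depth limits Rpl24, Rps10, Rpl32l, Rpl39l and Rpl3l, whose libraries hold few counts. The cause of these changes was not tested.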

Other observations

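Rows named as ribosomal protein pseudogenes (321 rows), which no comparison above uses on their own, took 0.0865% to 0.112% of the counts. The WT libraries 1 to 4 had 0.0979%, 0.0911%, 0.104% and 0.105%. The KO libraries 1 to 4 had 0.112%, 0.111%, 0.0978% and 0.0865%. KO 1, KO 2, WT 3 and WT 4 were again above the other 4 libraries. With these rows added to the genes they are named for, 19 members were called higher in the 1600 series, 8 lower in the 1700 series and 21 in the interaction.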
